A study of Mus musculus with 20 samples.

Results

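The transcripts of 10 genes that build the adherens junction and the desmosome were compared in colonic intestinal epithelial cells (IECs) between mice exposed to a social disruption stressor (Str) and mice left in their home cages (Con). The genes were taken by symbol from the table of 15876 genes, and all 10 had a row: the cadherins *Cdh1* and *Cdh17*, the catenins *Ctnnb1*, *Ctnna1* and *Ctnnd1*, the desmosomal cadherins *Dsg2* and *Dsc2*, and the desmosomal plaque genes *Jup*, *Pkp2* and *Dsp*. The Str group was 10 adult male C57BL/6NCrl mice, 6 to 8 weeks old, whose cage of 3 residents was visited by an aggressive older male for 2 h a day over 6 days. The Con group was 10 mice of the same strain, sex and age that were not disturbed. Colonic cells were collected 12 to 15 h after the last stressor, depleted of dead and CD45+ cells, selected for EpCAM, and sequenced as ribosomal RNA-depleted total RNA, with 1 library per mouse. Which mice shared a cage was not given in the sources used here, so mice were treated as independent, and the p-values measure the spread between mice only under that assumption.

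Both junctions hold neighbouring epithelial cells together. In the adherens junction, E-cadherin spans the membrane, and its tail binds p120-catenin near the membrane and beta-catenin further along. Beta-catenin in turn binds alpha-catenin, which connects the complex to actin. In the desmosome, desmogleins and desmocollins take the place of E-cadherin, plakoglobin and plakophilins bind their tails, and desmoplakin ties the plaque to keratin filaments. In a colon exposed to bacteria these contacts carry the mechanical strength of the cell sheet, while the tight junction above them seals it.

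Str libraries held 20390091 to 24508215 counts and Con libraries 20034127 to 26141352. Each member had between 1665 and 48322 counts in a library, so counting error was small beside the spread between mice. The column names carry a letter, V or L, that the sources used here do not explain, with 5 libraries of each letter in each group. Of the epithelial markers 5 of 6 were measured, with a summed level of 9951 to 13540 CPM (counts per 1000000, on TMM-scaled library sizes) in Str and 10780 to 13150 CPM in Con, and none was called. *Ptprc*, which encodes CD45, was between 0.33 and 1.62 CPM in Str and between 0.51 and 2.17 CPM in Con. Of 11 leukocyte markers 3 were measured, and their summed level was 33.6 to 128 CPM in Str and 19.8 to 41.7 CPM in Con. Of these, *Ly6g* of neutrophils, at 75.9 ± 28.6 CPM in Str and 28.9 ± 7.51 CPM in Con, and *Cd68* of macrophages, at 3.23 ± 0.84 CPM in Str and 2.18 ± 0.31 CPM in Con (SD, n = 10 mice per group), were called higher in edgeR, with adjusted p = 0.000109 and 0.00660. *Ptprc* went the other way without a call, at a log2 fold change of Str over Con of -0.37 (edgeR adjusted p = 0.359), and *Ly6g* made up most of the sum. Which cells held the *Ly6g* RNA was not tested, nor was the part of these markers in the results on junction genes. None of 10 fibroblast and smooth muscle markers was called, at 198 to 529 CPM in Str and 156 to 516 CPM in Con. *Alb*, the hepatocyte gene for albumin, stood at 1.64 to 3.18 CPM in Str and at 69.3 to 79.9 CPM in 4 Con libraries (CV3, CV4, CV6 and CL1), against 1.73 to 3.19 CPM in the other Con libraries. Of 8 hepatocyte markers 4 were measured. Besides *Alb*, *Ttr* was called lower in Str in edgeR (29.2 CPM against 40.7 CPM in Con, adjusted p = 0.00132). *Trf* (24.2 CPM in Str, 25.2 CPM in Con) and *Apoa2* (0.55 and 0.67 CPM) were not called. The 4 libraries are named below, from *Alb* alone, the Con libraries with liver transcripts. Results are also given without them. In sorted bulk cells, fewer cells of a type cannot be told apart from less RNA per cell.

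At the RNA level the core of both junctions differed little between Str and Con, with 1 of the 10 genes called. *Ctnnd1*, which encodes p120-catenin, the protein that binds E-cadherin near the membrane and keeps it at the cell surface, was 13.2% higher in Str. No member was lower. The other 9 had 95% intervals that together ran from -12.1% to 19.0% relative to Con. A gene was called at an adjusted p under 0.05 in edgeR's quasi-likelihood test, with Benjamini-Hochberg adjustment over all genes, and by this rule 8.94% of all genes were higher and 7.72% lower. The count of 1 in 10 was thus close to the background in edgeR, but it was 5 in DESeq2 and in limma-voom and 3 in edgeR without SL5. Of all genes 10.3%, 10.5% and 9.87% were higher in these 3 runs. In the same test 8 of 10 members had a log2 fold change of Str over Con (log2FC) above 0, against 49.0% of all genes, and the members' median was 0.10 against -0.0042 for all genes. At an unadjusted p under 0.05, 6 of 10 members were higher, against 14.8% of all genes. The median size of a member's log2 fold change, 0.10 with the sign dropped, was below the 0.11 of all genes and the 0.29 of called genes. Those genes were not matched to the members by level, and 9 of 10 members lay in the top 3% of all genes in CPM.

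**Figure D1:**
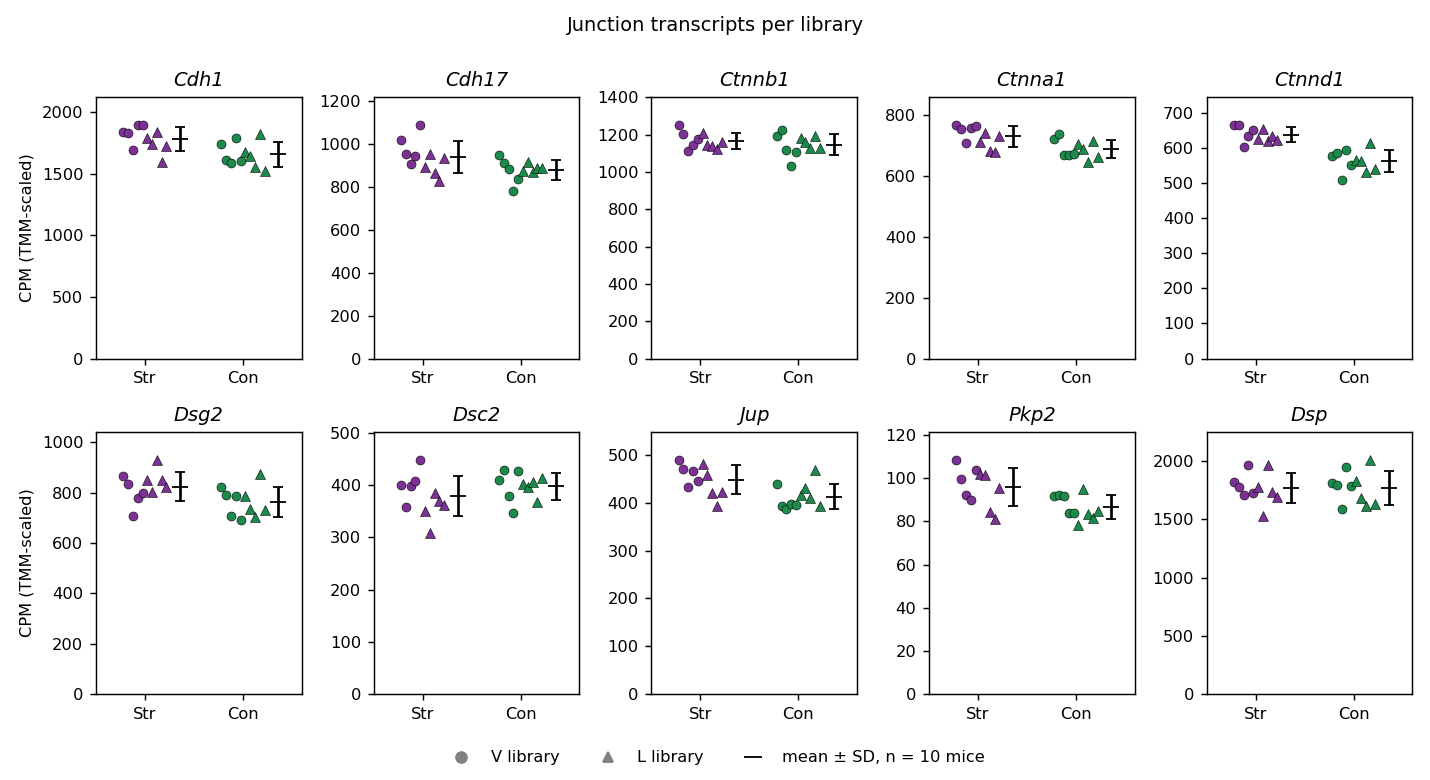
Level of each of the 10 junction genes in every library, in CPM with TMM scaling, Str left of Con. Circles are V libraries, triangles L libraries, and the bar beside each group is the mean ± SD of 10 mice. The groups overlap for every gene. *Ctnnd1* comes nearest to separation, with 9 of 10 Str libraries above the highest Con library at 614 CPM.

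The catenins were the class that held the called gene. *Ctnnd1* (chromosome 2, 84587096 to 84658977, minus strand, GRCm38) ran from 602 to 665 CPM in Str, with a median of 633 CPM, and from 509 to 614 CPM in Con, with a median of 564 CPM. SV4, at 602 CPM, fell within the Con range, and the other 9 Str libraries lay beyond its upper end. The means were 636 ± 20.9 CPM in Str and 562 ± 31.4 CPM in Con (SD, n = 10 mice per group). In edgeR the log2FC was 0.18 with an SE of 0.037, a 95% interval of 0.10 to 0.25 and an adjusted p of 0.00206. It kept its call without any single library, at 0.16 to 0.19 with an adjusted p of 0.00106 to 0.00493. Without the 4 Con libraries with liver transcripts it was 0.17 (adjusted p = 0.0176), still the 1 member called, while 5.38% of all genes were then higher.

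Complete separation of the groups was rare in these data: 0.365% of all genes and 0 of 10 members had no overlap between Str and Con. RefSeq (GRCm38.p6) places starts of *Ctnnd1* at 2 sites, and the windows from 250 bases before to 50 bases after each are printed because this was the called member. Capitals mark matches to CCAAT or TATAAA on either strand, with the sequence read 5′ to 3′ along the gene.
Upstream start, chr2:84658928-84659227, minus strand: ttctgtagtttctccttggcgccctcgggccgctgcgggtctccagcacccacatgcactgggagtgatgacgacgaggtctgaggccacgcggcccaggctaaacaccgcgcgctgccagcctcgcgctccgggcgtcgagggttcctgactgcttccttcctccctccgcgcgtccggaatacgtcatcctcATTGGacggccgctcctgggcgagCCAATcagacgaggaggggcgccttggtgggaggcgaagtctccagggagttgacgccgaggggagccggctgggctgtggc
Downstream start, chr2:84650691-84650990, minus strand: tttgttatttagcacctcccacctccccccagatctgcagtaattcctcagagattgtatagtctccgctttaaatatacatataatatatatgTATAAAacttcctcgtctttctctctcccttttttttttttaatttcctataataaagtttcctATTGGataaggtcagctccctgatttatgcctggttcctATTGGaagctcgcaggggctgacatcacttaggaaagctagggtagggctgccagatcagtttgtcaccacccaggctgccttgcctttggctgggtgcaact
The upstream window is 67.7% G or C and holds 30 CpG dinucleotides, whereas the downstream window is 42.7% G or C and holds 3. Each contains CCAAT 2 times, a pentamer present in 37.4% of all 32851 promoter windows of the same length. TATAAA, present in 13.6% of them, occurs 1 time in the downstream window and not in the upstream one. Neither window contains the GC box GGGCGG (35.7% of all windows), the E-box CACCTG to which Snail and ZEB repressors can bind (20.2%) or TTCNNNGAA, the STAT pattern (8.30%). The counts are per gene and do not show which start was used, and a match or its absence says nothing of a factor's binding. Promoter windows were matched for 4 of the 10 members: *Ctnnd1*, *Ctnnb1*, *Jup* and *Dsp*.

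*Ctnna1* encodes alpha-E-catenin, the link between the cadherin complex and actin. It had 679.8 to 769 CPM in Str (median 738 CPM) and 646 to 740.0 CPM in Con (median 681 CPM). Of the Str libraries 5 exceeded every Con library, yet the call was missed, with a log2FC of 0.085 (SE 0.037, edgeR adjusted p = 0.123).

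*Ctnnb1* encodes beta-catenin, which serves both as the cadherin's partner and as the transcriptional effector of Wnt signalling. Its libraries lay between 1110.5 and 1254 CPM in Str (median 1154 CPM) and between 1035 and 1224 CPM in Con (median 1143 CPM), an almost complete overlap. The log2FC of *Ctnnb1* was 0.026 (edgeR adjusted p = 0.702), and its 95% interval ran from -3.65% to 7.54% relative to Con.

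The classical cadherin of the epithelium was abundant in every mouse. *Cdh1* (E-cadherin) ran from 1592 to 1896 CPM in Str, with a median of 1808 CPM, and from 1523 to 1823 CPM in Con, with a median of 1629.6 CPM. In 5 Str libraries it exceeded the highest Con library. It was not called at a log2FC of 0.11 (SE 0.045, 95% interval 0.013 to 0.20, edgeR adjusted p = 0.111).

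*Cdh17* encodes liver-intestine cadherin, a 7D cadherin whose short tail does not bind catenins. Its level was 828 to 1091 CPM in Str (median 939.7 CPM) and 783 to 952 CPM in Con (median 886 CPM). The highest value came from SV6 and the lowest from CV4, and 4 Str libraries lay above all Con libraries. Its log2FC was 0.094 (SE 0.048, edgeR adjusted p = 0.187).

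Neither desmosomal cadherin was called. *Dsg2*, the desmoglein of simple epithelia, had 708 to 929 CPM in Str (median 828 CPM) and 689 to 875 CPM in Con (median 761 CPM). *Dsg2* had a log2FC of 0.11 (SE 0.051, edgeR adjusted p = 0.143), with 1 Str library, SL4, above the Con range. *Dsc2*, the desmocollin that pairs with it, had 308 to 448 CPM in Str (median 377 CPM) and 346 to 428 CPM in Con (median 404 CPM). The Str libraries reached past the Con range at both ends, with SL2 below it and SV6 above it. For *Dsc2* the log2FC was -0.072 (SE 0.055, edgeR adjusted p = 0.407).

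In the desmosomal plaque, *Pkp2* came closest to a call. It encodes plakophilin 2, which binds desmoplakin and the desmosomal cadherin tails, and was the least abundant member. *Pkp2* had 81.2 to 108 CPM in Str (median 97.6 CPM) and 78.35 to 94.9 CPM in Con (median 84.35 CPM), with 6 Str libraries above the Con range. Plakophilin 2 RNA had a log2FC of 0.15 (SE 0.051, 95% interval 0.040 to 0.25, edgeR adjusted p = 0.0525).

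*Jup* encodes plakoglobin, the close relative of beta-catenin that serves in both junctions. It had 393 to 489.9 CPM in Str (median 453 CPM) and 387 to 469 CPM in Con (median 404 CPM). In 3 Str libraries it exceeded the Con maximum, which was set by CL4. At a log2FC of 0.12 (SE 0.045, edgeR adjusted p = 0.0753) it was not called.

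*Dsp* encodes desmoplakin, the protein that anchors keratin filaments to the plaque. It had 1528 to 1964 CPM in Str (median 1753 CPM) and 1588.5 to 2009 CPM in Con (median 1788 CPM). The means were 1769 ± 129 CPM in Str and 1769 ± 142 CPM in Con (SD, n = 10 mice per group). The 95% interval of its log2FC, -0.11 to 0.11, was centred on 0 (edgeR adjusted p = 0.999).

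The number of members called depended on the test. DESeq2 called 5 members higher, *Cdh1*, *Ctnna1*, *Ctnnd1*, *Jup* and *Pkp2*, where 10.3% of all genes were higher. limma-voom with quality weights called the same 5, where 10.5% of all genes were higher. The log2 fold changes of the 4 added genes hardly differed between tools, at 0.085 to 0.15 in edgeR, 0.089 to 0.15 in DESeq2 and 0.095 to 0.16 in limma-voom. Their adjusted p-values were 0.0525 to 0.123 in edgeR, 0.0345 to 0.0444 in DESeq2 and 0.0233 to 0.0465 in limma-voom. No tool called *Cdh17*, *Ctnnb1*, *Dsg2*, *Dsc2* or *Dsp*. Single libraries also decided calls. *Pkp2* was called in edgeR without CL2 (adjusted p = 0.0380), SV5 (0.0481), SL4 (0.0229) or SL5 (0.0144), and *Jup* without CL4 (0.0285) or SL5 (0.0269). SL5 was the lowest Str library for 5 members, *Cdh1*, *Cdh17*, *Ctnna1*, *Jup* and *Pkp2*, and CL4 the highest Con library for 5, *Cdh1*, *Ctnnd1*, *Dsg2*, *Jup* and *Dsp*.

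**Figure D2:**
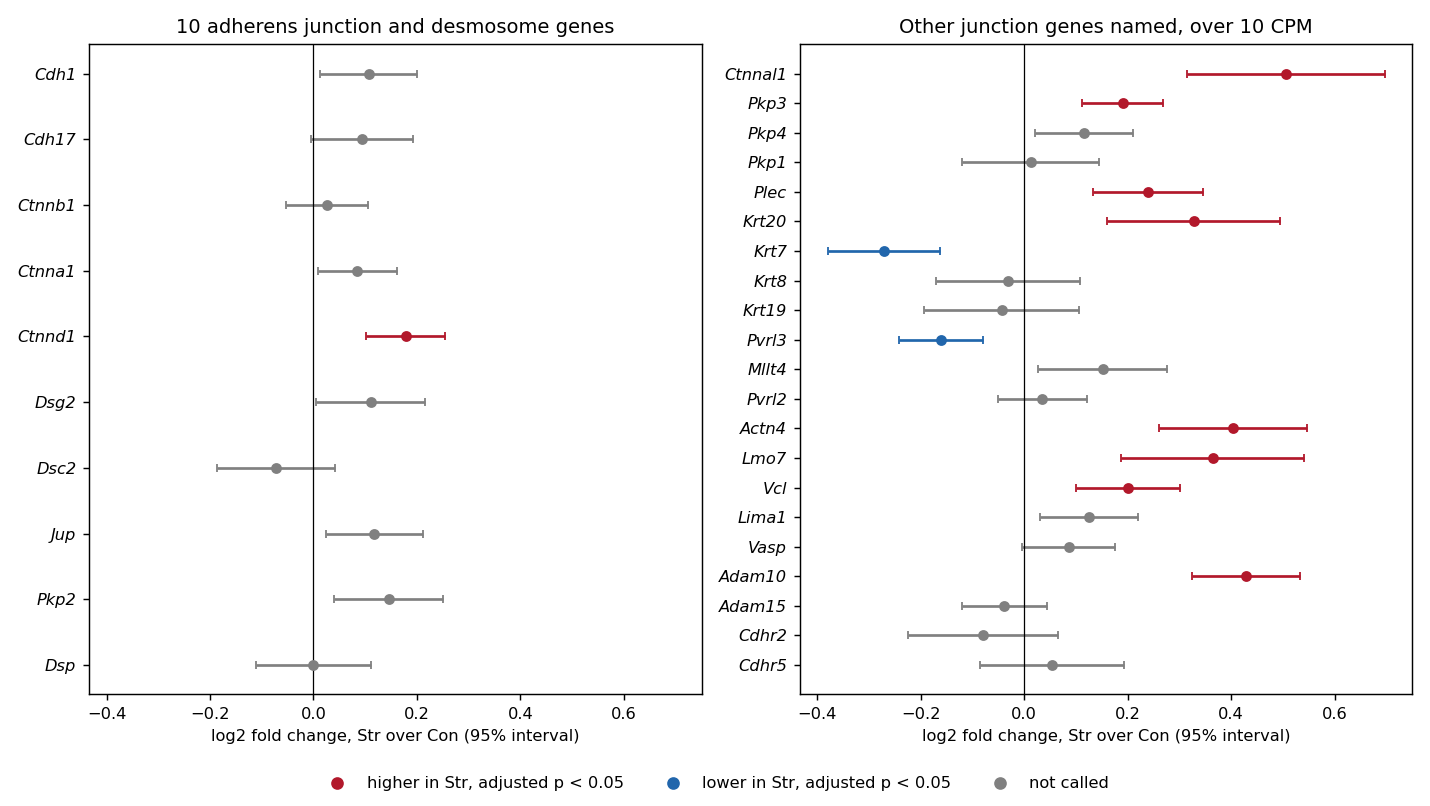
Log2 fold change of Str over Con with its 95% interval from edgeR, for the 10 members (left) and for the other named junction genes over 10 CPM (right), each from 10 Str and 10 Con libraries. Red marks genes called higher, blue genes called lower and grey genes not called. Among the members *Ctnnd1* at 0.18 is called, while *Ctnnal1*, *Adam10* and *Actn4* reach 0.51, 0.43 and 0.40.

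The letters gave no tested difference. The interaction of group and letter had an adjusted p of 0.873 to 0.987 for the members, and 0 of all genes passed this edgeR test. At an unadjusted p under 0.05 there were 918, and other tools were not run on the interaction. *Ctnnd1* had a log2 fold change of 0.19 in V libraries and 0.16 in L libraries, with 5 Str against 5 Con libraries each, and it was called in neither (adjusted p = 0.0640 and 0.147 from edgeR). Of all genes 5.08% were called higher in V libraries alone and 0.0567% in L libraries alone. *Pkp2* had 0.15 in V and 0.14 in L libraries. *Jup* had 0.19 in V libraries (adjusted p = 0.0474 from edgeR) and 0.038 in L libraries, and *Cdh17* had 0.17 and 0.013. *Dsc2* had 0.013 in V and -0.16 in L libraries.

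Ranked by their mean per kilobase of exon, the members had the same order in both groups. *Cdh1* was the most abundant, at 402 ± 21.8 CPM per kb in Str and 373 ± 22.7 CPM per kb in Con, followed by *Ctnnb1* at 322 ± 12.3 CPM per kb in Str and 316 ± 15.3 CPM per kb in Con (SD, n = 10 mice per group). *Cdh17*, *Ctnna1* and *Dsp* formed the next tier, at 184 to 210 CPM per kb in Str and 184 to 197 CPM per kb in Con, and neighbours within this tier overlapped between libraries. *Jup* stood alone, at 139 CPM per kb in Str and 128 CPM per kb in Con. *Dsg2*, *Ctnnd1* and *Dsc2* overlapped in turn, at 81.7 to 99.6 CPM per kb in Str and 85.9 to 92.2 CPM per kb in Con. Their order changed between libraries. *Dsg2* lay above *Ctnnd1* in 5 of 10 Str and 9 of 10 Con libraries, and *Ctnnd1* above *Dsc2* in 10 and 5. *Pkp2* was lowest, at 32.9 CPM per kb in Str and 29.7 CPM per kb in Con. Exon lengths were those of GENCODE M21, while the counts rest on NCBI gene models, so the values per kb are approximate. In CPM 9 of the 10 members lay above the 97th percentile of all genes, and *Pkp2* lay at percentile 84.1.

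**Figure D3:**
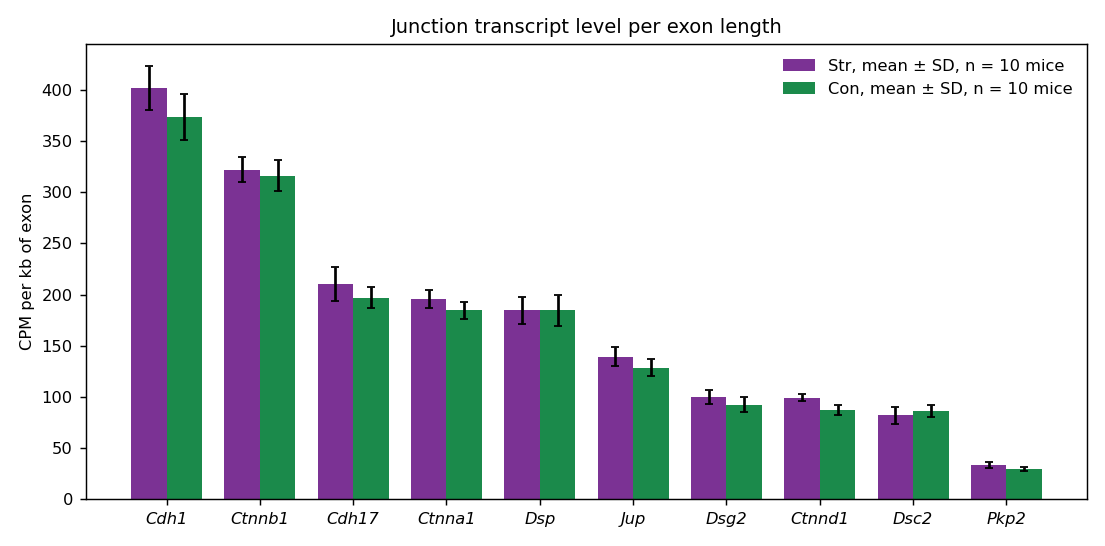
Level of the 10 junction genes per kilobase of exon, Str bars left of Con bars, as the mean ± SD of 10 mice per group. The order of the means runs from *Cdh1*, at 402 CPM per kb in Str and 373 in Con, to *Pkp2*, at 32.9 in Str and 29.7 in Con. It is the same in both groups, though some neighbours overlap.

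The members varied little from mouse to mouse. The coefficient of variation ran from 3.29% (*Ctnnd1*) to 10.1% (*Dsc2*) in Str and from 4.42% (*Ctnna1*) to 8.04% (*Dsp*) in Con. Over the 4218 genes with a mean of at least 50 CPM the median was 8.02% in Str and 7.40% in Con. Together the 10 transcripts took up 0.828% to 0.904% of the counts of a Str library and 0.811% to 0.895% of those of a Con library.

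Ratios within a library compare partners without regard to the scaling between libraries. Of 6 ratios 3 passed a two-sided permutation test with Benjamini-Hochberg adjustment over the 6. The ratio of *Dsp* to *Cdh1*, 1 gene of each junction, was lower in Str by 0.11 on the log2 scale (adjusted p = 0.0254), and 9 of 10 Str libraries lay below the Con median. It does not stand for the whole junctions. In edgeR the log2FC was 0.11 for *Cdh1*, 0.11 for *Dsg2*, 0.12 for *Jup*, 0.15 for *Pkp2* and -0.072 for *Dsc2*. The ratio of *Jup* to *Ctnnb1*, the related proteins that compete for cadherin tails, was 0.091 higher (adjusted p = 0.0376), with 9 of 10 Str libraries above the Con median. The ratio of *Ctnnd1* to *Cdh1* was 0.072 higher (adjusted p = 0.0376), with 8 of 10 above. The ratio of *Dsc2* to *Dsg2* averaged -1.12 ± 0.20 in Str and -0.94 ± 0.17 in Con (log2, SD, n = 10 mice per group), a difference of -0.19 that did not pass (permutation test, adjusted p = 0.0559). *Pkp2* to *Dsp* differed by 0.14 (adjusted p = 0.124) and *Cdh17* to *Cdh1* by -0.015 (adjusted p = 0.759).

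The calls on ratios depended on the libraries. Without the 4 Con libraries with liver transcripts the 3 ratios differed by -0.10, 0.090 and 0.053, at adjusted p = 0.118, 0.156 and 0.211 in the permutation test, and none passed. *Dsp* to *Cdh1* also failed without SV2, SL2 or CL1 (adjusted p = 0.0518 to 0.0583). *Jup* to *Ctnnb1* failed without any one of SV1, SV2, SL1, SL2, CV1, CV2, CV3, CL1 and CL6 (0.0546 to 0.0748), and *Ctnnd1* to *Cdh1* without any one of SV1, SV2, SL1, SL2, SL5, SL6, CV1, CV3 and CL1 (0.0549 to 0.0772). In the other direction, *Dsc2* to *Dsg2* passed without SV4, SV5, SV6, CV4 or CL4 (0.0286 to 0.0445).

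**Figure D4:**
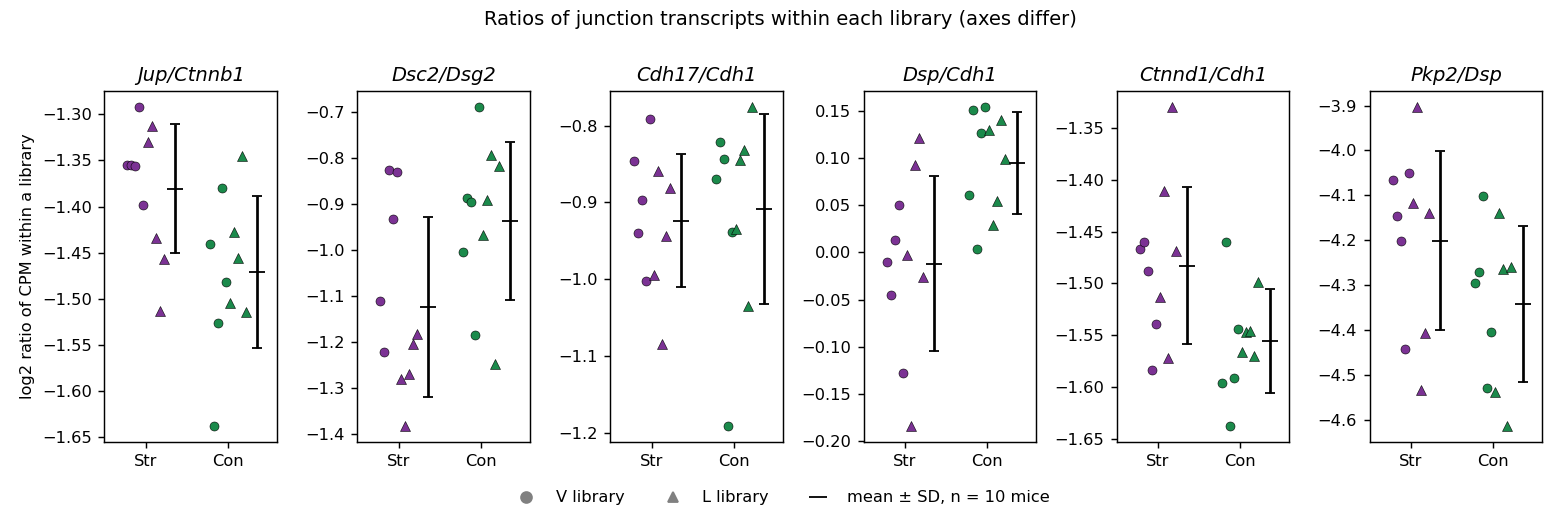
Within-library log2 ratios of CPM for 6 pairs of junction genes, Str left of Con, with circles for V and triangles for L libraries and the mean ± SD of 10 mice beside each group. The axes differ between panels and do not start at 0. The Str mean lies 0.11 below the Con mean for *Dsp* to *Cdh1* and 0.091 above it for *Jup* to *Ctnnb1*, with overlap in every panel.

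Most pairs of members correlated positively between mice of 1 group. Of 45 pairs 33 correlated positively in Str and 32 in Con, with a median Pearson's r of 0.43 in Str and 0.44 in Con. A pair was counted where Pearson's r and Spearman's rho both passed a permutation test, adjusted over the 90 relations. In Str 1 pair passed, *Cdh17* with *Ctnna1* (r = 0.90, rho = 0.93, permutation adjusted p = 0.0103 and 0.0167, n = 10), and r was 0.93 without the 2 libraries farthest from the *Cdh17* median. In Con 4 pairs passed, *Ctnnd1* with *Dsp*, *Cdh1* with *Dsp*, *Ctnnd1* with *Dsg2* and *Cdh1* with *Ctnnd1*. In Str these pairs had r = -0.14, 0.53, 0.28 and 0.38, and the difference between the groups was not tested. In Con, *Ctnnd1* with *Dsp* had r = 0.92 and rho = 0.94 (permutation adjusted p = 0.0103 and 0.0167), and *Cdh1* with *Dsp* had r = 0.89 and rho = 0.90 (0.0159 and 0.0207). *Ctnnd1* with *Dsg2* had r = 0.86 and rho = 0.87 (permutation adjusted p = 0.0401 and 0.0351), and *Cdh1* with *Ctnnd1* had r = 0.82 and rho = 0.88 (0.0468 and 0.0335). Without the 2 farthest libraries the 4 Con values of r were 0.85, 0.74, 0.80 and 0.64. In the 6 Con libraries without liver transcripts they were 0.96, 0.92, 0.94 and 0.87 (exact permutation p = 0.00417, 0.00972, 0.00833 and 0.0264, unadjusted). Each letter held 5 libraries of a group, too few for a correlation within it. All members share each library's composition and scaling.

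**Figure D5:**
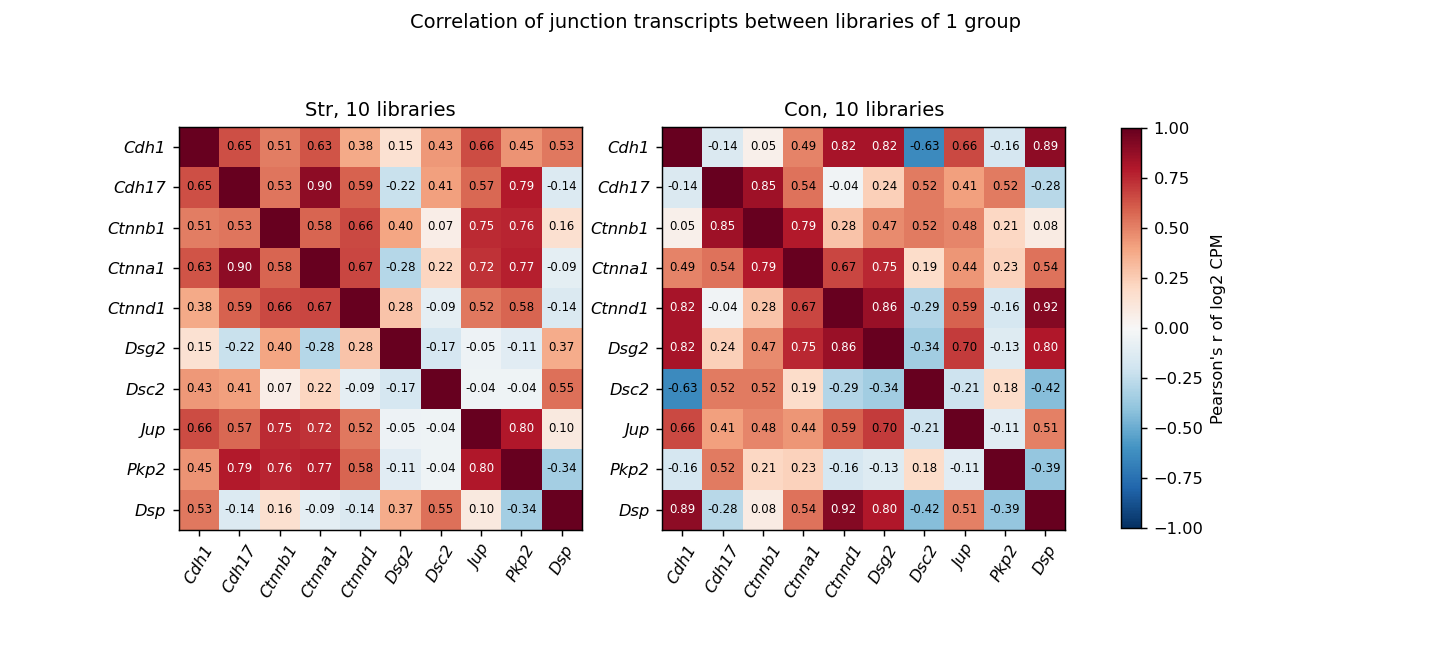
Pearson's r between the log2 CPM of each pair of the 10 junction genes over the 10 Str libraries (left) and the 10 Con libraries (right), from -1 in blue to 1 in red. *Cdh17* with *Ctnna1* reaches 0.90 in Str, and *Ctnnd1* with *Dsp* has -0.14 in Str and 0.92 in Con.

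Around the core, a few other junction genes differed by more than any member did, while most were not called. Of 73 symbols in 7 lists 55 were measured, partly because 5 genes stood in the lists under an older and a newer symbol, and 8 were higher, 2 lower and 45 not called in edgeR. Of all genes 8.94% were higher and 7.72% lower in that test. The median log2FC of the 55 genes, 0.054, was below the members' 0.10. DESeq2 called 10 higher and 3 lower, where 10.3% of all genes were higher and 8.43% lower. limma-voom called 11 higher and 3 lower, where 10.5% of all genes were higher and 10.7% lower. In edgeR without the 4 Con libraries with liver transcripts, 6 were higher and 2 lower, against 5.38% and 3.83% of all genes.

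The linkers to actin held 3 of the 8. *Actn4*, which encodes the actin crosslinker alpha-actinin 4, had 1099.5 to 1591 CPM in Str (median 1333 CPM) and 849 to 1159 CPM in Con (median 990.5 CPM). It had a log2FC of 0.40 (SE 0.069, edgeR adjusted p = 0.000464), with 8 of 10 Str libraries above the Con range. *Lmo7*, which encodes a protein that connects nectins and cadherins to actinin, had 0.36 (adjusted p = 0.00536), and *Vcl*, the gene for vinculin, which alpha-catenin recruits under tension, had 0.20 (adjusted p = 0.00673). *Lmo7* lost its call without the 4 Con libraries (0.32, adjusted p = 0.0559 from edgeR). The other 9 linkers were not called in edgeR, among them *Lima1* at 0.13 (adjusted p = 0.0615) and *Vasp* at 0.086 (adjusted p = 0.189). *Lima1*, which encodes the actin crosslinker EPLIN, was called higher by DESeq2 (adjusted p = 0.0283) and limma-voom (0.0332), and in edgeR without CL4 (0.15, adjusted p = 0.0231) or SL5 (0.14, adjusted p = 0.0247).

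Among the other catenins and plakophilins, 2 of 6 measured genes were higher. *Ctnnal1*, which encodes the alpha-catenin-like protein alpha-catulin, averaged 59.3 ± 10.2 CPM in Str and 41.8 ± 5.23 CPM in Con (SD, n = 10 mice per group), which is a log2FC of 0.51 (edgeR adjusted p = 0.000788). *Pkp3*, a plakophilin of simple and stratified epithelia, averaged 83.1 ± 3.74 CPM in Str and 72.8 ± 4.52 CPM in Con, which is a log2FC of 0.19 (edgeR adjusted p = 0.00146). *Pkp4* (0.12, adjusted p = 0.0864) and *Pkp1* (0.013, adjusted p = 0.913) were not called in edgeR. limma-voom called *Pkp4* higher (adjusted p = 0.0460), as did edgeR without CL6 (0.14, adjusted p = 0.0338) or SL5 (0.14, adjusted p = 0.0242).

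Among 9 genes of plakins, keratins and the desmosomal protein PERP, 2 were higher and 1 lower. *Plec*, the gene for plectin, which crosslinks keratin filaments, averaged 1861 ± 80.0 CPM in Str and 1577 ± 144 CPM in Con (SD, n = 10 mice per group), with a log2FC of 0.24 (edgeR adjusted p = 0.00278). *Krt20*, a keratin of the upper crypt and surface, had 0.33 (adjusted p = 0.00745) and lost its call without the 4 Con libraries (0.23, adjusted p = 0.0888 from edgeR). Of the 6 markers of absorptive colonocytes, *Krt20*, *Slc26a3* and *Ceacam20* were higher, *Car1* was lower, and *Car4* and *Aqp8* were not called, at 0.32 and 0.12. Their summed level was 6460 to 8743 CPM in Str and 5860 to 9830 CPM in Con. *Car1*, at a mean of 2303 CPM in Str and 3952 CPM in Con, made up the largest part of the sum. The part of these cells' share in the keratin result was not tested. *Krt7* was lower by -0.27 (adjusted p = 0.00125). The main simple keratins *Krt8* and *Krt19* were not called, at -0.031 and -0.043.

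*Adam10* gave the clearest separation. It encodes the membrane protease that cuts the ectodomain of E-cadherin, and its libraries ran from 134 to 184 CPM in Str (median 151.5 CPM) and from 108 to 121 CPM in Con (median 116 CPM). No Str library overlapped the Con range, and 0.365% of all genes had no overlap between the groups. For *Adam10* the log2FC was 0.43 (SE 0.050, edgeR adjusted p = 1.10e-05). *Adam10* was the 1 gene called in edgeR among the 9 measured genes for cadherin repressors, proteases and a ubiquitin ligase.

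In the nectin system, the second adhesion system of adherens junctions, *Pvrl3* (nectin-3) was lower in Str. It had 129 to 157 CPM in Str (median 145 CPM) and 148 to 173 CPM in Con (median 159.7 CPM), with a log2FC of -0.16 (edgeR adjusted p = 0.00677). The remaining 6 genes of the nectin list were not called in edgeR, with *Pvrl2* at 0.035 and *Mllt4*, the gene for the nectin adaptor afadin, at 0.15 (adjusted p = 0.0899). limma-voom called *Mllt4* higher (0.18, adjusted p = 0.0284), as did edgeR without CL4 (0.18, adjusted p = 0.0302). Of 7 other measured cadherins none was called in edgeR; *Cdh11* of mesenchymal cells had 3.96 CPM in Str and 3.08 CPM in Con, and *Cdh5* of endothelium had 3.56 CPM in Str and 2.81 CPM in Con. In V libraries alone *Cdh5* was called higher in edgeR, at a log2FC of 0.75 (adjusted p = 0.0373), against 0.34 in all libraries and 0.036 in L libraries. None of the 5 brush border genes was called in edgeR, with the protocadherins *Cdhr2* at -0.079 and *Cdhr5* at 0.054.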

How the data were processed

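The authors aligned paired reads from ribosomal RNA-depleted, directional libraries to GRCm38.p4 with STAR and counted reads per gene with HTSeq on NCBI gene models, and they deposited raw counts for 20 libraries beside 20 columns scaled by the authors, which were not used. Columns name the group (S or C), the unexplained letter and a number that is not the mouse number of the sample titles, so libraries were tied to groups only. The deposited counts were tested in edgeR 4.0.16 (R 4.3.3, limma 3.58.1) with TMM factors and the quasi-likelihood test. A minimum mean count of 4 removed 0 of 15876 genes. Libraries held 20034127 to 26141352 counts, and no pair was a duplicate. CPM values used TMM-scaled library sizes. Intervals are 95% intervals from the quasi-likelihood SE. Ratios used log2(CPM + 0.5) and 100000 permutations.

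The members and lists were chosen with earlier results of these data known, so their counts are descriptions. Named genes are all members and, from each list, up to 3 called genes per direction with the smallest adjusted p and up to 2 uncalled genes with the highest mean CPM. A gene that this rule names is not reported here. Alternatives were DESeq2 1.42.0, limma-voom, other scaling and filters, the letter, the column letter and number as a block, single letters and omitted libraries. The scripts were tested on simulated data with 200 changed genes.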

Additional observations from a re-analysis of the deposited data

Results flagged for a closer look

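Of 80 sets of 10 libraries, each holding 1 gene or 1 within-library ratio in 1 group, 1 had an extreme library by Dixon's test (critical value 0.466). *Adam15*, the gene for a membrane protease that can cleave E-cadherin, was at 79.3 CPM in the Con library CV6, below the other Con libraries. Chance marks about 1 set in 20. *Adam15* itself was not called, at -0.038 (adjusted p = 0.555 from edgeR).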

How the results depend on the processing

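The direction of *Ctnnd1* held in every alternative run, and its call was missing only in V or L libraries alone (5 Str against 5 Con libraries each). The number of members higher in Str was 5 with DESeq2 or limma-voom, where 10.3% and 10.5% of all genes were higher. It was 2 with RLE factors, filterByExpr or the letter as a covariate, where 9.3%, 9.25% and 9.94% of all genes were. In V libraries alone it was 1 (*Jup*), against 5.08% of all genes, and in L libraries alone 0, against 0.0567%. With 1 library left out it was 1 to 3, against 7.25% to 9.87%. No alternative called a member lower. With library sizes alone the median of all genes moved to -0.046 (1031 genes higher, 1949 lower), and the members' median was 0.058. A filter on the 15% of genes that vary least left 4 members to test. The main test did not treat columns of the same letter and number as pairs. Of 8 such pairs 4 correlated above 0.1 (r from 0.017 to 0.44), and 2 of the 8 correlated best with their own partner. The values compared kept any difference between the letters, so this check cannot decide whether such columns share a block. The run with letter and number as a replicate block kept these 8 pairs and left out CV3, CL3, SV5 and SL5. In it 2 members were called, *Ctnnd1* at 0.16 and *Pkp2* at 0.19, where 9.78% of all genes were higher. *Pkp2* was also called without SV5 or SL5 alone, so blocking and the omitted libraries cannot be told apart there. Other junction genes numbered 8 to 11 higher and 2 to 3 lower with 1 library left out. V libraries alone gave 8 higher and 1 lower, and L libraries alone 0 higher and 0 lower, with 5 Str against 5 Con libraries each. Of all genes 807 were higher and 817 lower in V libraries, against 9 and 2 in L libraries. The cause of this difference was not tested.

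Values close to 0 changed sign without a call. *Dsp* was 0.0041 with DESeq2 or RLE factors, 0.0093 with limma-voom, 0.0025 with filterByExpr, 0.014 without the 4 Con libraries with liver transcripts, 0.0083 in V libraries and -0.019 to 0.021 with 1 library left out. *Ctnnb1* was -0.017 with library sizes alone, -0.0013 without the 4 Con libraries and -0.0030 in L libraries. *Dsc2* was 0.013 in V libraries. *Pkp1* was -0.031 with library sizes alone, -0.054 in L libraries and -0.014 to 0.048 with 1 library left out, and *Pvrl2* was -0.0067 with library sizes alone. In V libraries *Krt8* was 0.051, *Krt19* 0.11 and *Adam15* 0.0037; *Vasp* was -0.026 in L libraries, *Cdhr5* -0.030 without the 4 Con libraries, and *Krt19* 0.0081 with the replicate block.

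Among ratios, *Dsp* to *Cdh1* did not pass without the 4 Con libraries (-0.10), in V (-0.12) or in L libraries (-0.090), and ran from -0.12 to -0.088 with 1 library left out. *Jup* to *Ctnnb1* was 0.090, 0.14 and 0.040 in those settings and 0.072 to 0.11 with 1 left out. *Ctnnd1* to *Cdh1* was 0.053, 0.058 and 0.086, and 0.055 to 0.084. *Dsc2* to *Dsg2* was -0.22 to -0.16 with 1 left out. *Cdh17* to *Cdh1* was 0.037 in V libraries and -0.047 to 0.0025 with 1 left out. The cause was not tested. A pseudocount of 1 CPM changed no ratio's call.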
